A study of Mus musculus with 16 samples.

Results

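The 5′ end of 28S ribosomal RNA (28S rRNA, the large RNA of the large ribosomal subunit) was one of the main sources of small RNA reads in mouse sperm. Its fragments were taken as reads of 18 to 44 nt that started at base 1 to 5 of the mature 28S rRNA and matched it with at most 1 substitution. The rule found 12231221 of 103084122 reads, and 4261 of 4230643 distinct sequences, over 8 libraries. Small RNA was read from mature sperm of the cauda epididymis of adult male mice on a C57BL/6NCrl background, with 2 libraries in each of 4 groups. The groups were Dnmt2-/- mice on a high-fat diet (HFD, diet D12492), Dnmt2-/- mice on a normal diet (ND, Diet 1415), Dnmt2+/+ mice on HFD and Dnmt2+/+ mice on ND. Dnmt2 is a cytosine methyltransferase that acts on a few tRNAs. The knockout allele came from a mixed B6 and 129 stock (B6;129-Dnmt2tm1Bes/J) and had been crossed to C57BL/6NCrl for several generations. Per the labels all groups were otherwise handled alike: sperm were spun down from saline, their total RNA was isolated with Trizol, and a TruSeq kit for small RNA made the libraries. The labels give neither the length of the diets nor the number of mice in a library. Every p-value here is therefore set against how far libraries differ, and that can be technical. In the fits this is the spread within a group. The exact permutation tests set 4 libraries against 4, and each arm mixes both genotypes or both diets.

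As background, 18S, 5.8S and 28S rRNA are cut from one precursor transcript, whose genes lie in tandem repeats. The second internal transcribed spacer (ITS2) separates 5.8S from 28S rRNA, and its removal makes the 5′ end of 28S rRNA. In the finished ribosome this end is paired with the 3′ part of 5.8S rRNA. Mature sperm hold little intact rRNA, and fragments of rRNA and of tRNA are the classes of small RNA that sperm are best known for. The library kit captures RNAs with a 5′ phosphate and a 3′ hydroxyl group, so fragments with other ends are under-represented in such libraries.

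The region is shown first, because the fragments are read against it. It is the majority sequence of the deposited reads, with T for U. Lower case before the capitals is the last stretch of ITS2, capitals are 28S bases 1 to 44, which the reads can reach from base 1, and lower case after them is the 28S rRNA beyond.
28S boundary: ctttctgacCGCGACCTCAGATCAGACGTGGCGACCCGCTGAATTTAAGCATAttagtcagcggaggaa
The 8 most abundant fragments follow, because they make the ladder of ends described here. Capitals mark the bases that each has beyond the next shorter one.
20 nt: cgcgacctcagatcagacgt
31 nt: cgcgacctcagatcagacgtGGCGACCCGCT
32 nt: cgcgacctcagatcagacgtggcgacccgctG
34 nt: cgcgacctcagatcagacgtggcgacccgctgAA
35 nt: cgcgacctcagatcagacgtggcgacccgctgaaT
36 nt: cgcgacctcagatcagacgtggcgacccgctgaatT
37 nt: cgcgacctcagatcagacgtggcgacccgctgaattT
40 nt: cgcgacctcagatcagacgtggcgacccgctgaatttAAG
All 8 started at base 1 without a substitution, and they held 62.7% to 79.0% of the 28S 5′-end reads of a library. Of the 4261 distinct sequences, 1330 were read in all 8 libraries and 1134 in 1 library.

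The libraries held 10165031 to 19030258 reads. Single-base mismatches to abundant sequences that are no 28S fragment split them into sets that match the diets in part and not the 4 groups. Whether these mismatches are sequencing errors was not tested. In 3 libraries, called set A, G was read as T at base 29 of the read 440.8 to 700.7 times per 10000 reads, against 2.91 to 4.25 in the other 5. In another 3 libraries, set B, C was read as G at base 26 of the read 10.4 to 11.3 times per 10000, against 0 to 1.54 elsewhere. The remaining 2 libraries form set C. Set A holds Dnmt2-/- ND 1 and 2 and Dnmt2+/+ ND 1, set B holds Dnmt2-/- HFD 1 and Dnmt2+/+ HFD 1 and 2, and set C holds Dnmt2-/- HFD 2 and Dnmt2+/+ ND 2. Diet and set therefore cannot be told apart in sets A and B, and in set C the diets also differ in genotype. The sperm microRNA list (3 of 4 microRNAs matched, carried by miR-10a and miR-10b) summed to 4602 to 5739 counts per 1000000 reads (CPM) in HFD libraries and 2014 to 3827 CPM in ND libraries. MiR-449a, also on this list, had 0 to 4.76 CPM. It was highest in Dnmt2+/+ ND 2 and at 0 in Dnmt2+/+ ND 1, so the sum does not describe it. MicroRNAs of the epididymal epithelium (miR-200b, miR-200c and miR-141, 3 of 3) summed to 526.1 to 3747 CPM in HFD libraries and 150.1 to 1610 CPM in ND libraries. By set they summed to 2843 to 3747 CPM in set B, 150.1 to 340.7 CPM in set A, and 526.1 and 1610 CPM in set C. For muscle only miR-206 could be read (1 of 3), with 64.7 to 75.3 CPM where set B was read and no more than 0.676 CPM in sets A and C. Red blood cell, leukocyte and endothelial lists (2 of 3, 2 of 3 and 1 of 1) summed to values at or below 2.20, 3.59 and 19.2 CPM, with miR-144 at 0 in every library, and no liver microRNA could be matched (0 of 1).

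The 28S 5′ fragments took up 4.70% to 19.6% of a library, and the HFD libraries held more of them on average than the ND libraries, with overlap. They made up 10.3% and 17.8% of reads in Dnmt2-/- HFD sperm, against 7.59% and 9.88% in Dnmt2-/- ND sperm. In Dnmt2+/+ sperm they made up 19.6% and 19.4% on HFD, against 4.70% and 11.8% on ND. The Dnmt2+/+ ND 2 library was above Dnmt2-/- HFD 1, so the diets overlapped, while within each genotype both HFD libraries were above both ND libraries. The 95% Wilson interval of the lowest share was 4.69% to 4.71% and covers counting error only. In CPM, the mean was 167746 ± 44233 in HFD libraries and 85040 ± 30757 in ND libraries (SD, n = 4 each; two-sided exact permutation test p = 0.0571, adjusted p = 0.457 over 16 tests). Dnmt2-/- libraries averaged 113832 ± 44445 CPM and Dnmt2+/+ libraries 138954 ± 71179 CPM, with complete overlap (exact permutation p = 0.571, n = 4 each). The smallest p that 4 against 4 libraries allow is 0.0286. Within set C the HFD library (Dnmt2-/-) was 59653 CPM above the ND library (Dnmt2+/+). A fit that includes the sets, without genotype, gave the same diet difference, 59653 ± 59480 CPM (SE). Sets A and B each hold a single diet, so this difference is that of set C and no second result. More cells of a type and more of the fragments per cell cannot be told apart in such libraries. The part of the epithelial microRNAs in the difference was not tested.

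**Figure D1:**
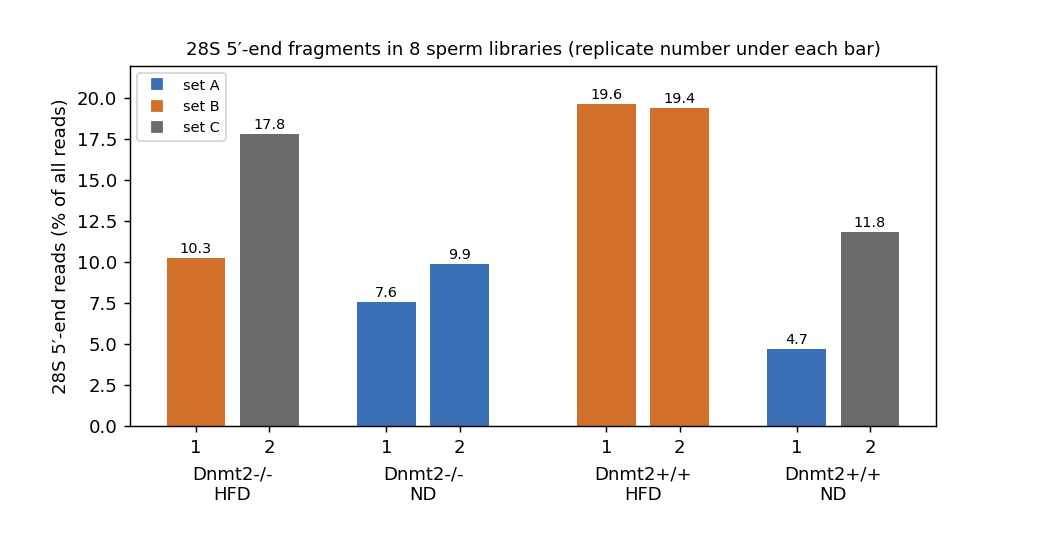
Reads of the 28S 5′ end as a percentage of all reads (vertical axis, from 0) in each of the 8 libraries, grouped by genotype and diet with the replicate number under each bar. Colours mark the 3 sets of libraries with a shared pattern of mismatches. Both HFD bars stand above both ND bars within each genotype, and Dnmt2+/+ ND 2 (11.8%) stands above Dnmt2-/- HFD 1 (10.3%).

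The same was asked of the reads grouped by their first 18 bases, a family, with edgeR's quasi-likelihood test and Benjamini-Hochberg adjustment over all 30306 families. The family that starts at 28S base 1 was higher by 0.69 ± 0.42 (log2, SE) in HFD than in ND within Dnmt2-/- (edgeR adjusted p = 0.853), beside a median of 0.47 over all families. Within Dnmt2+/+ it was higher by 1.14 ± 0.42 (unadjusted p = 0.0184, edgeR adjusted p = 0.381), beside a median of 0.29. The genotype differences were -0.40 ± 0.42 on HFD and 0.05 ± 0.42 on ND, and the interaction of diet and genotype was -0.45 ± 0.59 (edgeR adjusted p = 0.987 to 1). With normalization by trimmed means (TMM) the medians over all families were 0.03 and -0.12 for diet within Dnmt2-/- and Dnmt2+/+, and the 28S differences 0.21 and 0.82, in the same direction. None passed, nor did any other family: edgeR called 0 of 30306 families (0%) in each of the 5 comparisons, with 765 to 2913 at an unadjusted p under 0.05, while DESeq2 called 3 to 863. Without Dnmt2+/+ ND 2 the difference within Dnmt2+/+ was 2.002 and passed (edgeR adjusted p = 0.0414, the lone ND library being assumed to vary like the other groups). In the edgeR fit that includes the sets, the difference within Dnmt2-/- was -0.35, the opposite direction, and did not pass.

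Among the RNAs that could be set beside it, the 28S 5′ end was above the other rRNA ends in every library and, in most, below the most abundant tRNA fragment. Reads from the 5′ end of 5.8S rRNA, the small RNA paired with it, came to 9798 to 18388 CPM in HFD libraries and 9515 to 15653 CPM in ND libraries, so the 28S level was 4.01 to 15.3 times the 5.8S level. The 5′ end of 5S rRNA, which has genes of its own, gave 870.8 to 1790 CPM on HFD and 1041 to 1772 CPM on ND. The 5′ end of 18S rRNA, the RNA of the small subunit, gave 197.9 to 991.7 CPM on HFD and 27.2 to 944.4 CPM on ND, and the 28S level was 125.4 to 1727 times as high. These levels are CPM of fragments of like length, not copies of the full RNAs. The 5′ fragment of glycine tRNA (anticodon GCC) came to 133085 to 166578 CPM on HFD and 150527 to 284188 CPM on ND, and that of glutamate tRNA (CTC) to 187224 to 270622 CPM on HFD and 174274 to 396223 CPM on ND. Short reads of these tRNAs may be shared with other tRNAs of the same amino acid. The 28S level was 0.615 to 1.48 times that of the glycine tRNA fragment on HFD and 0.312 to 0.621 times on ND. Against the glutamate tRNA fragment it was 0.379, 0.761, 1.05 and 0.985 times in the HFD libraries, and 0.235, 0.281, 0.119 and 0.680 times in the ND libraries. In 5 of the 8 libraries the most abundant 28S sequence was the 36-nt one, in the others the 34-nt or the 35-nt one, and it stood at rank 2 to 17 among all sequences. In edgeR's test none of the 5 other ends passed in any comparison, and the diet differences were -0.55 ± 0.45 in Dnmt2-/- and 0.12 ± 0.45 in Dnmt2+/+ for 5.8S rRNA (log2, SE). Because all values are shares of the same total, a library with more of one RNA has less of another.

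Nearly all of the fragments began exactly at base 1. Base 1 was the start of 98.99% to 99.45% of the reads in HFD libraries and of 97.83% to 99.47% in ND libraries (exact permutation p = 0.543, n = 4 each). The 8 libraries gave a lowest, median and highest level of 45986, 109794 and 194720 CPM for base 1. Base 2 gave 176.5, 371.5 and 838.9 CPM, base 3 gave 127.1, 273.3 and 378.0 CPM, base 4 gave 72.8, 274.8 and 479.9 CPM, and base 5 gave 29.1, 72.2 and 253.5 CPM. In set A many reads from bases 2 to 4 carried a substitution at base 32, given below. Counting only reads without a substitution, base 4 gave 7.89 to 21.4 CPM there, in place of 72.8 to 347.4 CPM. In sets B and C it gave 129.6 to 377.2 CPM, in place of 159.1 to 479.9 CPM. In edgeR's test the families of the minor starts did not pass either. For base 2 the diet difference was 0.28 ± 0.57 in Dnmt2-/- and 1.38 ± 0.58 in Dnmt2+/+ (log2, SE; edgeR adjusted p = 0.999 and 0.448), and for base 5 it was 0.71 ± 0.67 and 1.70 ± 0.69 (edgeR adjusted p = 0.952 and 0.430). Outside the rule, reads that matched without a substitution began 1 base before base 1, inside ITS2, at 364.6 to 2131 CPM, and all starts before base 1 together gave 410.6 to 2557 CPM. Starts at bases 6 to 83 gave 380.8 to 2842 CPM, most of it at bases 6 to 20, with a local peak at base 15 of 87.0 to 1006 CPM. Reads that started at bases 21 to 44 summed to 41.3 to 97.4 CPM.

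**Figure D2:**
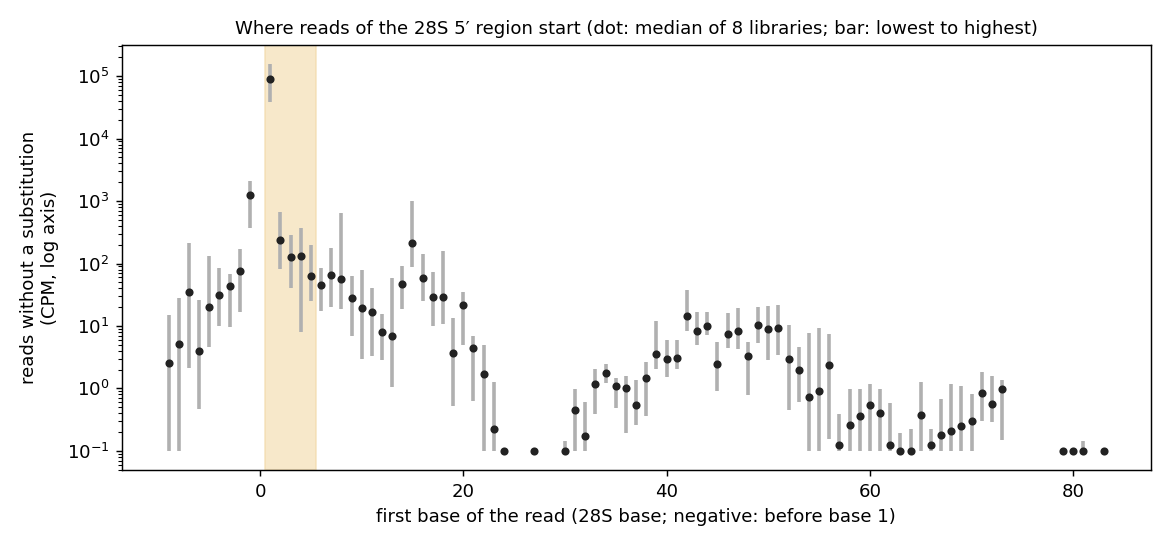
Reads that match the 28S region without a substitution, by the 28S base at which they start (horizontal axis, negative before base 1), in CPM on a log axis; dots are the median of the 8 libraries, bars run from the lowest to the highest, values under 0.1 CPM are drawn at 0.1, and the shaded band marks bases 1 to 5. The dot at base 1 stands far above all others, next highest being the start 1 base before it.

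The 3′ ends were spread over a ladder with few rungs. Of the 27 possible lengths, 7 held on average at least 5% of the fragments: 20, 31, 34, 35, 36, 37 and 40 nt. Together they held 76.6% to 88.6% of the reads of a library, and no other length exceeded 4.54% in any library. Lengths of 34 to 37 nt alone held 48.5% to 76.4%. Between the rungs the shares were lower: 0.965% to 3.45% for 21 to 23 nt, 0.312% to 1.44% for 24 to 29 nt, 2.88% to 6.27% for 32 and 33 nt together, 1.61% to 5.68% for 38 and 39 nt together, and at most 0.996% for 41 to 44 nt. The files stop at 44 nt, so longer 28S fragments were not analysed here.

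**Figure D3:**
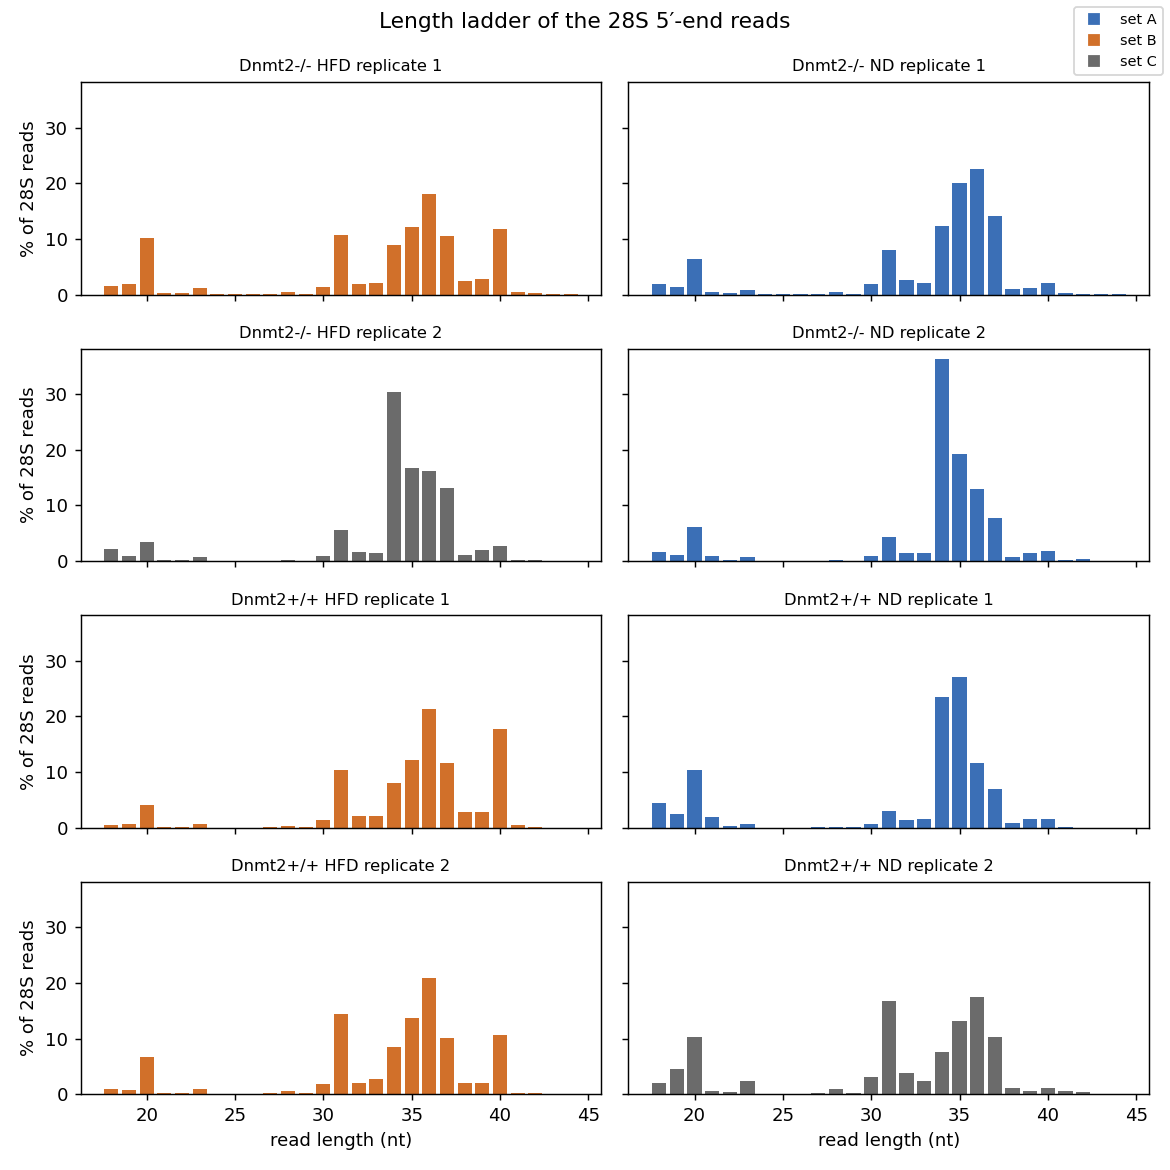
Share of the 28S 5′-end reads of each library (vertical axis, %) at each read length from 18 to 44 nt (horizontal axis), with HFD libraries in the left column and ND libraries in the right column; colours mark the sets. Every library has rungs at 20, 31 and 34 to 37 nt, and the rung at 40 nt is tall in 3 of the 4 HFD libraries.

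The 20-nt fragment, which ends at base 20, held 10.2% and 3.45% of the reads in Dnmt2-/- HFD libraries and 6.42% and 6.17% in Dnmt2-/- ND libraries. In Dnmt2+/+ libraries it held 4.08% and 6.66% on HFD and 10.4% and 10.3% on ND. It was nonetheless the dominant RNA of its size, since 28S 5′-end reads were 46.5% to 70.8% of all 20-nt reads in a library, but 0.0404% to 0.178% of all 25-nt reads. The 31-nt fragment held 10.7% and 5.61% in Dnmt2-/- HFD libraries and 7.97% and 4.29% in Dnmt2-/- ND libraries. In Dnmt2+/+ it held 10.3% and 14.4% on HFD and 2.92% and 16.7% on ND, so the highest and the lowest library were replicates of one group. The 34-nt fragment differed widely between replicates in 3 of the 4 groups and little in Dnmt2+/+ HFD. It held 8.94% and 30.3% in Dnmt2-/- HFD, 12.3% and 36.3% in Dnmt2-/- ND, 8.02% and 8.41% in Dnmt2+/+ HFD, and 23.5% and 7.60% in Dnmt2+/+ ND libraries. The 3 high libraries, Dnmt2-/- HFD 2, Dnmt2-/- ND 2 and Dnmt2+/+ ND 1, do not all share a diet, a genotype or a set. The ratio of 34-nt to 36-nt reads was 1.88 to 2.80 in these and 0.376 to 0.546 in the other 5.

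The 35-nt fragment held 12.1% to 16.7% on HFD and 13.1% to 27.01% on ND. The 36-nt fragment held 16.1% to 21.3% on HFD and 11.7% to 22.5% on ND, and the 37-nt fragment 10.1% to 13.2% on HFD and 7.01% to 14.1% on ND. All 3 overlapped between diets and between genotypes. The last base was examined only in reads without a substitution that started at the first 28S base. Of these, 50.3% to 70.7% in a library ended at a 28S U, although 6 of the 27 bases from 18 to 44 are U. Ends between 2 U residues, as at 35 and 36 nt, made up 29.9% to 42.2% of the same reads. Reads with a substituted last base are not part of these shares.

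The 40-nt fragment was the only one of the 7 main lengths whose share did not overlap between diets, and the reads of other RNAs did the same at this length. It held 11.7% and 2.69% in Dnmt2-/- HFD libraries, against 1.99% and 1.81% in Dnmt2-/- ND libraries. In Dnmt2+/+ it held 17.7% and 10.7% on HFD, against 1.53% and 1.18% on ND. All 4 HFD libraries were above all 4 ND libraries. The lowest HFD library, Dnmt2-/- HFD 2, lay near the ND libraries and is also the HFD library outside set B. It had 526.1 CPM of the epididymal epithelial microRNAs, against 2843 to 3747 CPM in the other 3 HFD libraries. Dnmt2+/+ ND 2, with 1610 CPM of them, had the lowest 40-nt share of all (1.18%). The part of these cells in the 40-nt share was not tested. Of the 27 lengths, the shares of 3 (21, 39 and 40 nt) did not overlap between diets and those of 0 did not overlap between genotypes. That is 11.1% by diet, and it is less than in the rest of the libraries: of the same 27 length shares taken over all reads that are no 28S 5′-end fragment, 8 (29.6%) did not overlap between diets and 0 (0%) between genotypes. At 40 nt those other reads made up 0.427% to 1.03% on HFD and 0.0775% to 0.342% on ND. Of the 257 other families with a mean of at least 100 CPM, 8.95% did not overlap between diets and 0.778% between genotypes. At 21 nt HFD was lower, with 0.149% to 0.283% on HFD and 0.444% to 1.87% on ND, and at 39 nt HFD was higher, with 1.97% to 2.87% on HFD and 0.515% to 1.54% on ND. Lengths of 37 to 44 nt together held 28.3% and 19.4% in Dnmt2-/- HFD, 18.8% and 12.3% in Dnmt2-/- ND, 35.6% and 25.2% in Dnmt2+/+ HFD, and 10.9% and 14.0% in Dnmt2+/+ ND libraries. The means were 27.1% ± 6.75 on HFD and 14.0% ± 3.43 on ND (SD, n = 4 each; exact permutation p = 0.0286, the smallest the design allows, adjusted p = 0.457). Within set C the share was 5.36 percentage points higher in the HFD library. The mean length was 33.9 ± 0.755 nt on HFD and 32.4 ± 0.975 nt on ND (exact permutation p = 0.0857, adjusted p = 0.457, n = 4 each). In the 16 tests of level and composition, all adjusted p were 0.457 or more, and the genotype comparisons gave exact permutation p of 0.314 to 0.8286.

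**Figure D4:**
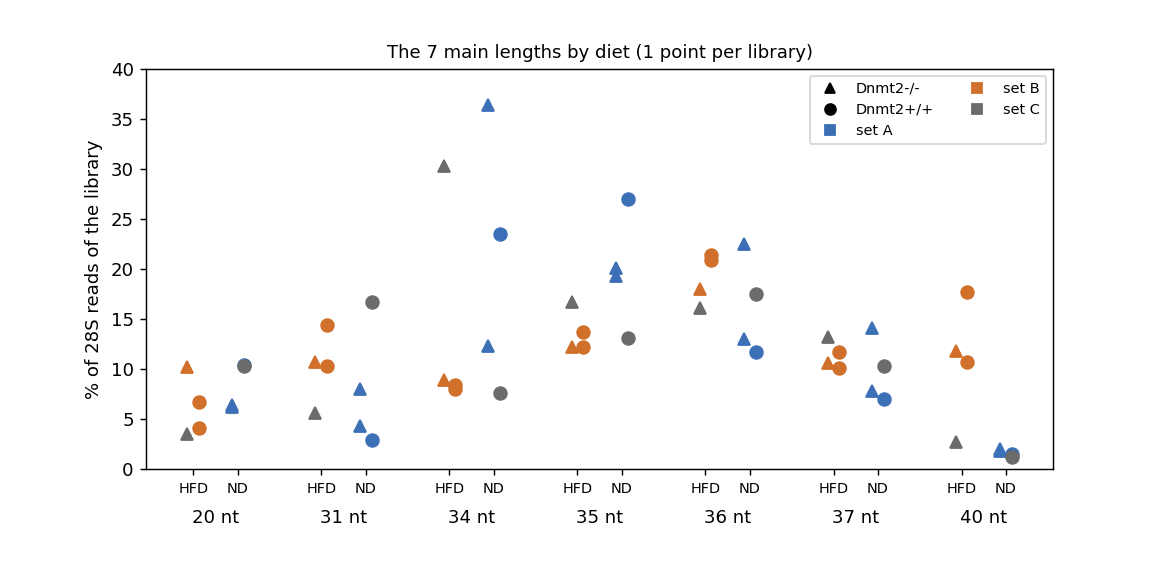
Share of the 28S 5′-end reads (vertical axis, %, from 0) at each of the 7 main lengths, with HFD on the left and ND on the right of each pair and 1 point per library; triangles are Dnmt2-/-, circles are Dnmt2+/+ and colours mark the sets. At 40 nt all 4 HFD points (2.69% to 17.7%) lie above all 4 ND points (1.18% to 1.99%), and at the other 6 lengths the diets overlap.

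Tested as distinct sequences, the exact 40-nt fragment had 9715 and 4243 CPM in Dnmt2-/- HFD libraries, against 1255 and 1501 CPM in Dnmt2-/- ND libraries. In Dnmt2+/+ libraries it had 27101 and 16072 CPM on HFD, against 602.5 and 1258 CPM on ND. The log2 difference was 2.34 ± 0.72 in Dnmt2-/- (SE; edgeR adjusted p = 0.230) and 4.54 ± 0.80 in Dnmt2+/+ (unadjusted p = 8.23e-05, edgeR adjusted p = 0.295), and neither passed. DESeq2 called the difference in Dnmt2+/+ (3.99, adjusted p = 0.00174), and edgeR called it without either Dnmt2-/- HFD library (4.54, adjusted p = 0.0221 without replicate 1 and 0.0132 without replicate 2) and without Dnmt2+/+ ND 2 (5.16, adjusted p = 0.00259). In Dnmt2-/-, edgeR called the difference without Dnmt2+/+ ND 1 or ND 2 (2.34, adjusted p = 0.0205 and 0.0174), libraries that enter that comparison through the shared estimate of spread alone. A fit that includes the sets gave 0.56 in Dnmt2-/- and 2.91 in Dnmt2+/+, and neither passed. The interaction was -2.20 ± 0.98 (unadjusted p = 0.0445, edgeR adjusted p = 0.99998), so the diet difference was not shown to differ between genotypes.

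The other 7 of the most abundant sequences had diet differences of 0.32 to 0.95 in Dnmt2-/- and of 0.08 to 1.44 in Dnmt2+/+ (log2), none past the threshold. The exact 36-nt fragment, the most abundant on average, had 13821 and 24924 CPM in Dnmt2-/- HFD libraries, against 13863 and 10622 CPM in Dnmt2-/- ND libraries. In Dnmt2+/+ libraries it had 30801 and 29109 CPM on HFD, against 4513 and 17561 CPM on ND. Its diets overlapped in Dnmt2-/- and not in Dnmt2+/+, and the log2 differences were 0.66 ± 0.71 and 1.44 ± 0.72 (SE; edgeR adjusted p = 0.722 and 0.391). The exact 20-nt fragment had 7730 and 5429 CPM in Dnmt2-/- HFD, against 4169 and 5412 CPM in Dnmt2-/- ND libraries. The nearest values, 5429 and 5412 CPM, were almost equal, and the difference was 0.46 ± 0.67 (edgeR adjusted p = 0.808). In Dnmt2+/+ the 20-nt fragment had 5872 and 9265 CPM on HFD, against 4313 and 10043 CPM on ND, with overlap and a difference of 0.08 ± 0.67 (edgeR adjusted p = 0.970). With 2 libraries against 2, a lack of overlap says little for either fragment.

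Their share of all reads of one length differed between neighbouring lengths. They were 56.0% to 80.9% of all 37-nt reads in a library, but 15.1% to 42.7% of all 38-nt reads, 17.1% to 49.2% of all 39-nt reads and 10.1% to 23.3% of all 41-nt reads. Of all 40-nt reads they were 75.8% and 51.1% in Dnmt2-/- HFD, 36.4% and 42.1% in Dnmt2-/- ND, 80.7% and 77.4% in Dnmt2+/+ HFD, and 49.4% and 31.6% in Dnmt2+/+ ND libraries. The 4 HFD libraries were above the 4 ND libraries, the nearest being Dnmt2-/- HFD 2 and Dnmt2+/+ ND 1. This was not particular to 40 nt. The lowest HFD and highest ND shares were 71.8% and 71.2% at 37 nt, 27.1% and 25.5% at 38 nt, and 44.3% and 35.2% at 39 nt. At 21 nt the order was reversed, with at most 2.84% on HFD and at least 5.36% on ND. Of all 34-nt reads they were 15.5% to 62.2%, with Dnmt2-/- HFD 2 highest.

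Of the 4261 distinct 28S sequences, 1401 passed the filter on low counts among 50436 sequences tested. EdgeR called 0 of the 1401, and 0 of the 50436 (0%), in each of the 5 comparisons. For HFD against ND in Dnmt2-/-, 219 of the 1401 (15.6%) were at an unadjusted p under 0.05, about the 15% of all sequences, and 151 of the 219 were higher. The median log2 difference of the 1401 was 0.71 beside 0.56 over all sequences, and DESeq2 called 59 (27 higher, 32 lower), or 4.21% beside 2.22% of all. For HFD against ND in Dnmt2+/+ the number at an unadjusted p under 0.05 was 349 (324 higher), or 24.9% beside 13.9% of all sequences. The median was 1.42 beside 0.39, and DESeq2 called 109 (99 higher, 10 lower), or 7.78% beside 2.34% of all. For Dnmt2-/- against Dnmt2+/+ on HFD the number was 29, or 2.07% beside 3.61%, with a median of -0.74 beside -0.30, and DESeq2 called 2, or 0.143% beside 0.147%. On ND it was 56, or 4% beside 4.4%, with a median of 0.30 beside -0.27, and DESeq2 called 0 beside 0.105% of all. For the interaction it was 73, or 5.21% beside 4.17%, and DESeq2 called 0 beside 0.0734%. Without Dnmt2+/+ ND 2, 1566 of the 28S sequences were tested and edgeR called 118 for diet in Dnmt2-/- (7.54%, beside 5.39% of 73214 sequences) and 302 in Dnmt2+/+ (19.3%, beside 6.59%). These sequences are nested fragments of one RNA and are not independent.

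Between 11.6% and 27.3% of the fragments carried their 1 allowed substitution. The share was 24.3% and 11.6% in Dnmt2-/- HFD, 17.97% and 15.9% in Dnmt2-/- ND, 25.2% and 27.3% in Dnmt2+/+ HFD, and 16.2% and 15.96% in Dnmt2+/+ ND libraries (HFD against ND, exact permutation p = 0.143, n = 4 each). Substitutions are written with the 28S base, its position counted from base 1, and the base read. Over the 39 positions with at least 10000 reads in each library, all 117 possible substitutions away from the read's last base were found. The 16 A-to-G and T-to-C changes other than T8C had a median rate of 30.1 per 10000 reads over the position, and the rest a median of 3.03.

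The most frequent was T8C, shown here in the 20-nt fragment with the changed base in capitals.
T8C: cgcgaccCcagatcagacgt
Its rate followed the sets. It was 510.9, 722.7 and 824.7 per 10000 in set B, 261.1, 271.8 and 271.2 in set A, and 107.7 and 89.2 in set C. By diet that is 510.9, 107.7, 722.7 and 824.7 on HFD and 261.1, 271.8, 271.2 and 89.2 on ND, which overlap. At base 8 of abundant reads from other RNAs, T was read as C 22.7 to 32.5 times per 10000, so the 28S rate was above it in every library. Reads that started at bases 2 to 5 carried T8C in at most 1.81% of cases, against 0.896% to 8.32% of those that started at base 1. In set B alone these were at most 1.81% and at least 5.14%. All 7 main lengths carried it: the share was 7.59% to 9.67% across the lengths in Dnmt2+/+ HFD 2, and 3.75% at 20 nt and 2.27% at 40 nt in Dnmt2+/+ ND 1.

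G21T, the next, stood at 216.9 to 258.0 per 10000 in set A and at 9.12 to 17.8 in the other 5 libraries, where other RNAs showed G read as T at base 21 at 5.54 to 6.46 in set A and 0.618 to 1.72 elsewhere. G32T stood at 61.7 to 214.3 in set A and 0.989 to 4.93 elsewhere. In set A it lay on 49.3% to 51.6% of the reads past base 32 that started at base 2, on 65.9% to 69.5% of those that started at base 3 and on 94.1% to 94.4% of those that started at base 4. In sets B and C it lay on at most 0.0825% of these. Of the reads that started at base 1 in set A it lay on 0.246% to 0.525%. T31C (24.2 to 56.8) and A17G (28.3 to 39.8) completed the 5 most frequent, beside the median of 30.1 for changes of their kind. At the read bases that define the sets, G29T stood at 57.9 to 63.7 in set A and 1.78 to 3.15 elsewhere, and C26G at 6.85 to 7.31 in set B and at most 0.731 elsewhere. What makes these rates differ between sets was not tested.

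**Figure D5:**
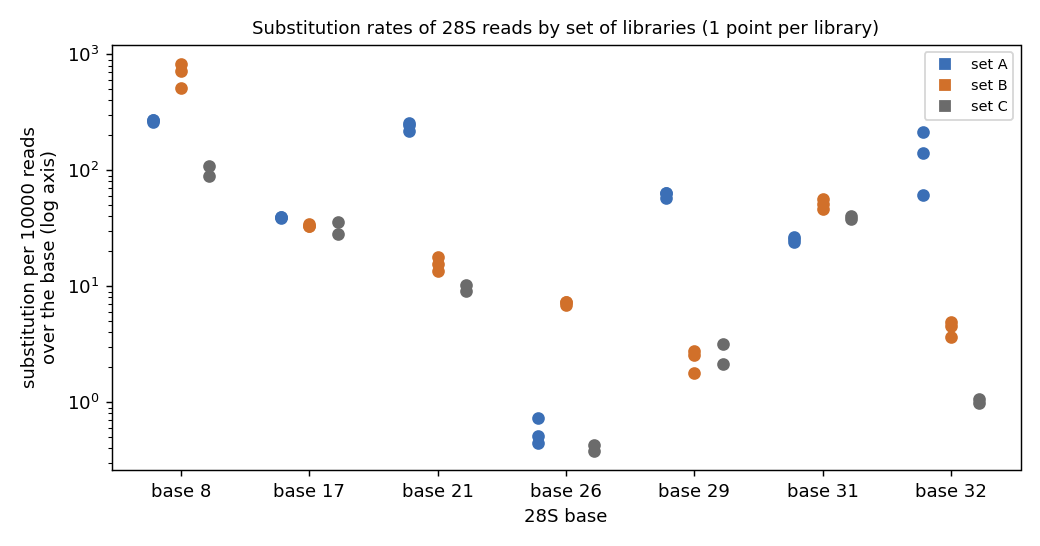
Rate of the 7 named substitutions (T8C, A17G, G21T, C26G, G29T, T31C and G32T, by 28S base) per 10000 reads over the base, on a log axis, with 1 point per library and colours for the sets. At base 8 set B is highest (510.9 to 824.7) and set C lowest (89.2 and 107.7), and at bases 21, 29 and 32 set A stands above the rest.

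Another group of substitutions sat at the last base of the read. They were found on 12.0% and 3.36% of the fragments in Dnmt2-/- HFD, 4.00% and 1.66% in Dnmt2-/- ND, 10.1% and 11.9% in Dnmt2+/+ HFD, and 2.18% and 9.78% in Dnmt2+/+ ND libraries. The 3 libraries of set B and Dnmt2+/+ ND 2 were high and the other 4 low, so the diets overlapped. The base found there was a C in 58.7% to 65.8% of cases. The substitution with the most reads at the last base was T36C, shown in the 36-nt fragment with the changed base in capitals.
T36C: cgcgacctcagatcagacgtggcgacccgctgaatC
It made up 9.42% to 10.5% of the reads that end at base 36 in set B, 1.87% to 3.54% in set A, and 3.77% (Dnmt2-/- HFD 2) and 7.41% (Dnmt2+/+ ND 2) in set C. At the end of the 20-nt fragment the sets fell in the same way: T20C made up 11.0% to 12.4% of the reads that end at base 20 in set B, 2.44% to 4.21% in set A, and 4.73% (Dnmt2-/- HFD 2) and 10.01% (Dnmt2+/+ ND 2) in set C. A substituted last base cannot be told apart from a base added to a fragment that is 1 nt shorter.

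Of 257 families with a mean of at least 100 CPM that hold no 28S 5′-end read, 3 followed the 28S level most closely over the 8 libraries. These correlations describe 8 libraries that share a total and the sets. The first was the family that starts 1 base before 28S base 1 (394.1 to 2672 CPM, Pearson's r of log2 CPM 0.956). The second, of 14.1 to 269.5 CPM, matched none of the 6 reference ends (r = 0.933). The third starts at base 11 of 5.8S rRNA (87.1 to 218.5 CPM, r = 0.918).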

How the data were processed

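Small RNA reads of 8 sperm libraries were used. The values the authors deposited for sperm are raw read counts, 1 for each distinct read of 18 to 44 nt, in files without a header. How adapters were removed is not stated in the labels. The 8 files of 3T3 cells were not used. The 28S rule, the lists and the measures were chosen with earlier results of these data known.

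No rRNA or tRNA sequence was at hand as a reference. Each was read as the majority sequence of the deposited reads that begin with 7 letters of the textbook start and extended by overlaps of 16 bases. For 28S bases 1 to 44 the majority letter held at least 90.4% of reads. A difference between the mice and a published sequence would therefore not appear as a substitution. MicroRNA sequences came from RefSeq, and 12 of 18 listed microRNAs were matched by name.

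Reads were matched with up to 1 substitution, and CPM is counts per 1000000 reads of the library. A count of 0 allows up to 3 counts, or 0.158 to 0.295 CPM, and intervals and floors cover counting error only because the reads carry no molecular identifiers. Libraries were put into 3 sets from base 26 and base 29 of 400 abundant sequences that are no 28S fragment, with at least 2000 reads each.

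Measures of level and composition were tested by exact permutation (two-sided, 4 libraries in each arm) and adjusted over 16 tests (Benjamini-Hochberg). Between single groups of 2 the smallest possible p is 0.333, so those carry no such test. Families (first 18 bases) and distinct sequences were tested with edgeR 4.0.16 in R 4.3.3 (quasi-likelihood, filterByExpr, total reads as library size and no further factor, 4 groups in one fit). An adjusted p under 0.05 was called. DESeq2 was an alternative. The fits were tested on simulated data with the same spread for every feature and with large changes. That does not measure how often they would find a change in these libraries. Replicates of every group differed by more than counting noise (chi-square of 12.9 to 155.5 per family), so each was counted as a library.

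Named were the 5 starts, lengths with a mean share of at least 5%, the 8 most abundant sequences, the 5 most frequent substitutions with those at read bases 26 and 29, and the 3 families that follow the 28S level most closely. The minimum of 10000 reads for a substitution was chosen after the data were seen. The deletion of Dnmt2 itself cannot be read from small RNA.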

Additional observations from a re-analysis of the deposited data

Results flagged for a closer look

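In the groups of 4 libraries that share a diet or a genotype, the highest or lowest library stood far from the other 3 in 14 of 88 comparisons of level, composition, main lengths and substitutions, where chance alone flags about 1 in 20. The measures are nested and the groups share libraries, so these are not 14 separate events.

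Among the main lengths, the 34-nt share was 30.3% in Dnmt2-/- HFD 2, against 8.02% to 8.94% in the other HFD libraries, and 23.5% in Dnmt2+/+ ND 1, against 7.60% to 8.41% in the other Dnmt2+/+ libraries. The 35-nt share was 27.01% in Dnmt2+/+ ND 1, against 12.2% to 13.7% in the other Dnmt2+/+ libraries. The 40-nt share was 11.7% in Dnmt2-/- HFD 1, against 1.81% to 2.69% in the other Dnmt2-/- libraries. The share with 1 substitution was 17.97% in Dnmt2-/- ND 1, against 15.9% to 16.2% in the other ND libraries.

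The remaining 9 are substitution rates per 10000 reads, in which a library stands apart from libraries of other sets. Among ND libraries, Dnmt2+/+ ND 2 had 89.2 for T8C (others 261.1 to 271.8), 10.1 for G21T (others 216.9 to 258.0), 28.3 for A17G (others 39.1 to 39.8) and 3.15 for G29T (others 57.9 to 63.7). Among Dnmt2+/+ libraries, Dnmt2+/+ ND 1 had 246.6 for G21T (others 10.1 to 15.5), 214.3 for G32T (others 1.06 to 4.93) and 63.4 for G29T (others 2.56 to 3.15). For C26G, Dnmt2-/- HFD 2 had 0.424 among HFD libraries (others 6.85 to 7.31), and Dnmt2-/- HFD 1 had 7.31 among Dnmt2-/- libraries (others 0.424 to 0.731). What sets these libraries apart was not tested.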

How the results depend on the processing

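The level difference by diet kept its direction under every alternative run, and no exact permutation test of level or composition reached an adjusted p of 0.05 under any. With a smallest possible p of 0.0286, an adjusted p under 0.05 would need most of the tests to stand at that minimum. That none passed therefore says little about how stable the results are. Outside the fits that leave out a library, 183 of the 206 alternative values kept their direction and their side of the threshold, 19 turned direction, and 4 moved or passed, all of these with DESeq2.

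The set of the libraries turned most of the directions, in comparisons that did not pass. With the set as a term, or within set C, the HFD-minus-ND difference was -1.03 percentage points for reads of 25 to 29 nt, 8.52 for 30 to 36 nt and -4.40 for the share with 1 substitution, and the base-1 family within Dnmt2-/- had a log2 difference of -0.35. For Dnmt2-/- minus Dnmt2+/+, the CPM difference was 40342 within set A and 59653 within set C. Within set B the genotype difference was -1.19 nt in mean length, 7.48 points for 18 to 24 nt and -5.31 for 30 to 36 nt. Within set A it was 0.248 points for 25 to 29 nt and 0.718 for the share with 1 substitution. For 37 to 44 nt it was 2.37 with the set as a term, 4.63 within set A and 5.36 within set C. On reads without a substitution the diet difference was -0.299 points for the start at base 1 and -0.0626 for 25 to 29 nt. The cause was not tested. DESeq2 called 59 and 109 distinct 28S sequences for diet within Dnmt2-/- and Dnmt2+/+, and 2 for genotype on HFD, of 1120, 1182 and 74 called among all sequences.

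Leaving out 1 library at a time, the diet difference ran from -0.0953 to 0.280 points for 25 to 29 nt and from -0.0232 to 0.523 for the start at base 1. The genotype difference ran from -5.27 to 2.97 points for 37 to 44 nt and from -0.12 to 1.07 nt in mean length. The base-1 family ran from 0.20 (without Dnmt2-/- HFD 2) to 1.05 (without Dnmt2-/- HFD 1) for diet within Dnmt2-/-, from 0.60 to 2.002 for diet within Dnmt2+/+, from -0.88 to -0.03 for genotype on HFD, from -0.48 to 0.92 for genotype on ND and from -1.31 to 0.0879 for the interaction. The 28S sequences called by edgeR numbered 0 to 122 for diet within Dnmt2-/-, 0 to 302 within Dnmt2+/+, 0 to 68 for genotype on ND and 0 to 14 for the interaction. Over all families the calls ran up to 1662, and over all sequences up to 4826. The fits that leave out a library keep 1 library in a group, and other sequences were called wherever 28S sequences were. These counts alone therefore do not mark out 28S. Without Dnmt2+/+ ND 1, the 28S median log2 difference for diet within Dnmt2-/- was 0.71, beside 0.66 over all sequences. For genotype on ND it was -0.21 beside -0.45, and for the interaction -0.53 beside 0.28. Without Dnmt2+/+ ND 2, it was 2.79 beside 1.23 for diet within Dnmt2+/+. With a minimum of 20 reads in all, 57479 families were tested and 7 called for diet within Dnmt2+/+.

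The replicate numbers did not clearly pair the libraries: same-numbered libraries deviated from their group means with correlations of -0.281 to 0.160 over 30306 families. These correlations cannot show whether libraries of the same replicate number were prepared together. With the replicate number as a block, the base-1 family differed by diet by 0.63 in Dnmt2-/- and 1.29 in Dnmt2+/+, edgeR called 1 and 5 families, and the smallest exact permutation p was 0.125, which is the smallest that 4 pairs allow. Counting error is small at this depth, and 2 libraries a group limit the precision.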
